A study of Mus musculus with 8 samples.

Results

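The genes described here encode the enzymes that break down amino acids in the liver and turn their nitrogen into urea. They are 49 of the 22911 mouse genes that the array probes could be assigned to, listed by function (urea cycle and the breakdown of histidine, tyrosine, tryptophan, serine, glycine, methionine, cysteine, branched chain amino acids, lysine and proline). Each gene was read from 1 probe, the brightest on average over all arrays. All 49 were well above background on all 8 arrays. Frozen livers came from male mice of strain C57BL/6 at 10 weeks of age, 4 with the genotype *Agpat3* WT and 4 with *Agpat3* KO, and the RNA of each was hybridized to 1 one-color array. *Agpat3* encodes an acyltransferase of the endoplasmic reticulum that makes phospholipids containing docosahexaenoic acid, and the KO mice lack it in the whole body, so a difference in liver need not arise in hepatocytes. The study asked how liver transcripts differ between the genotypes. The labels give no feeding state or litter for any mouse, and they do not say that WT and KO mice were littermates.

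When amino acids are used as fuel, aminotransferases move the amino group onto 2-oxoglutarate, glutamate carries it into the mitochondrion, and the urea cycle converts the released ammonia to urea for excretion. The carbon skeletons go through separate routes to pyruvate, ketone bodies or intermediates of the citric acid cycle, and several of these routes (tyrosine, tryptophan, methionine, cysteine to taurine) run mainly in hepatocytes. Transcription of many of these enzymes is known to follow fasting, glucagon and glucocorticoids, and part of them is restricted to hepatocytes near the portal vein.

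No member met the call used here, a fold change over 1.5 together with an adjusted p under 0.2 (limma, Benjamini-Hochberg over 29069 probes). Of 14067 named genes read the same way, 1.01% were called higher and 0.754% lower in KO (1.76% in all). With an unadjusted limma p under 0.2 in its place, *Csad* alone of the members was called, lower in KO. That rule called 988 of the 29069 probes. Without adjustment, 4 of the 49 members had a limma p under 0.05, which is 8.16% against 13.9% of all genes. These were *Tdo2*, *Kynu* and *Got1*, with lower means in KO, and *Shmt1*, with a higher mean. *Kynu* alone had an adjusted p under 0.2 (2.04% of members against 4.28% of all genes), with a fold of 1.36. Signals of the 4 KO livers lay wholly below those of the 4 WT livers for 3 members, *Kynu*, *Tdo2* and *Aldh6a1*, and wholly above them for 0. That is 6.12% of members without overlap, against 9.64% of all genes (5.79% with KO below and 3.85% with KO above). Over both directions each of these shares was below that of all genes, and the share with KO below was close to it.

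The intervals give the precision of each estimate, 1 gene at a time, and do not cover an effect of slide position. The 95% interval of the KO to WT fold lay within 1.5-fold in both directions for 42 of 49 members (85.7%, against 76.2% of all genes), and within 2-fold for 48 of 49 (98.0% against 93.4%). *Csad* was the exception at 2-fold, and *Csad*, *Cth*, *Got1*, *Kynu*, *Sds*, *Shmt1* and *Tdo2* were the 7 exceptions at 1.5-fold. The median log2 fold change of the members was −0.05, beside −0.03 for all genes, and 30 members had a negative and 19 a positive value (61.2% negative, against 57.9% of all genes). Single values ran from −0.88 for *Csad* to 0.38 for *Shmt1*, and the standard errors from 0.06 to 0.46 with a median of 0.11.

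**Figure D1:**
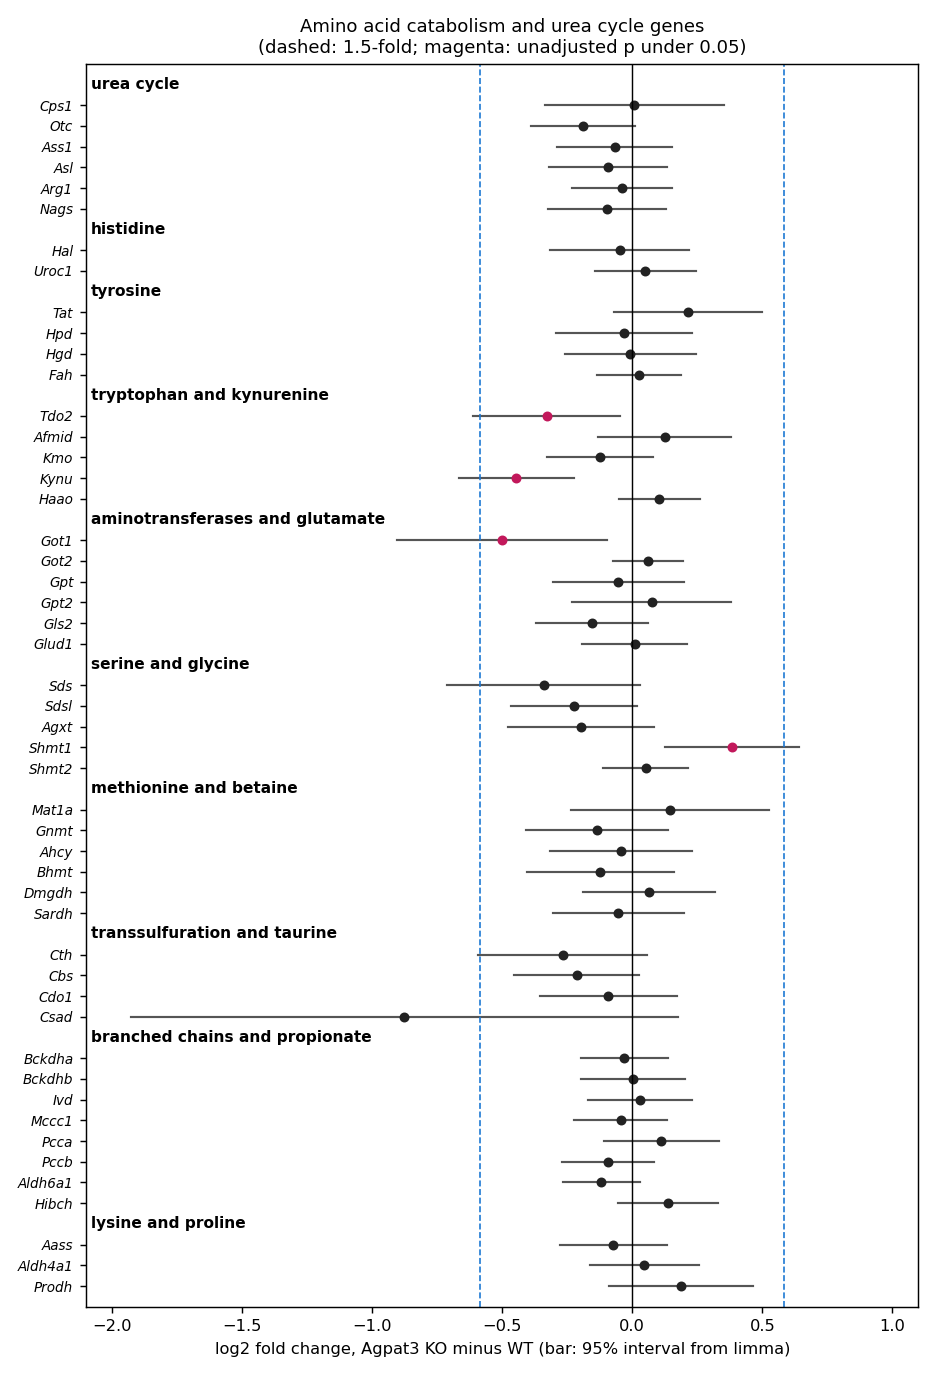
Log2 fold change of the 49 members (x axis, KO minus WT), in 10 groups by role; points are limma estimates from 4 WT and 4 KO livers, bars their 95% intervals, dashed lines 1.5-fold, and magenta marks an unadjusted p under 0.05. The bars of 42 members stay between the dashed lines, and the bar of *Csad*, from −1.93 to 0.18, is the widest.

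Of the 4 members with an unadjusted p under 0.05, *Kynu* had no entry among the promoter sequences available. Sequences just before the transcription start are shown for the other 3, *Tdo2*, *Got1* and *Shmt1*, so that they can be looked at directly. They come from RefSeq (build GRCm38.p6), run 5′ to 3′ on the strand of the gene, and end at the base before the start. All 3 genes lie on the minus strand. The windows are chr3:81975729-81975978 for *Tdo2*, chr19:43524606-43524855 for *Got1* and chr11:60811266-60811515 for *Shmt1*. Capitals mark matches, on either strand, to 3 short motifs. These are the CCAAT box, searched by that name, the TATA box, searched as TATAAA, and a cAMP response element core, searched as TGACG.
Tdo2: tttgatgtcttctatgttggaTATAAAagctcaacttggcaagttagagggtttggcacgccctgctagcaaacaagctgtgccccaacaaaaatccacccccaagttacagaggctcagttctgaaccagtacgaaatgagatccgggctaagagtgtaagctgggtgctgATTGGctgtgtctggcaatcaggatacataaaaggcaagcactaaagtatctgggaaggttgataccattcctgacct
Got1: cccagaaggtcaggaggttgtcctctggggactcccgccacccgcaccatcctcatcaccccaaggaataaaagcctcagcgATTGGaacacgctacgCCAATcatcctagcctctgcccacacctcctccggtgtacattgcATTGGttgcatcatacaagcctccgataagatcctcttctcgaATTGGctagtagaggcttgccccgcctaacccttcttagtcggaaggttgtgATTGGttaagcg
Shmt1: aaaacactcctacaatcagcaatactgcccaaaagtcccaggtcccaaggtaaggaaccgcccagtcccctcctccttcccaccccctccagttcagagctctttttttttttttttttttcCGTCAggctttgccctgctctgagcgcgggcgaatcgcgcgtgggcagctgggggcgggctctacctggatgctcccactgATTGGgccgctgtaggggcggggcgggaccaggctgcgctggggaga
The *Got1* window held the CCAAT box 5 times. The *Tdo2* window held the CCAAT box once and the letters TATAAA once. That TATAAA match lay near the end of the window farthest from the transcription start. The *Shmt1* window held the cAMP core once and the CCAAT box once. A table of 32851 mouse promoters of the same length, 250 bases, held the CCAAT box in 33.8%, the TATA box in 12.4% and the cAMP core in 17.8%. For 38 of the 49 members it held 42 promoters, of which 21 had the CCAAT box (50%), 4 the TATA box (9.52%) and 4 the cAMP core (9.52%). The sterol regulatory element, searched as TCACNCCAC, was in 1 of the 42 (2.38%), that of *Gnmt*, and in 1.05% of all promoters. A match says only that these letters are present somewhere in the window, and none of these windows was measured here.

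In the urea cycle, the 6 members had log2 fold changes between −0.19 and 0.01, and the 95% interval of every one stayed within 1.5-fold. *Cps1*, which makes carbamoyl phosphate from ammonia, had 0.01 with an interval from −0.34 to 0.35. *Otc*, which joins carbamoyl phosphate to ornithine, was the lowest of the 6 at −0.19, with an interval from −0.39 to 0.01 (limma, adjusted p = 0.401). Its signal was 6.36, 6.29, 6.31 and 6.28 in the WT livers and 5.96, 6.18, 6.04 and 6.31 in the KO livers, as log2 with the array's own 75th percentile set to 0, the scale of all signals given below. One KO liver, replicate 4, lay inside the WT range and the other KO livers lay below it. *Ass1* and *Asl*, which form and split argininosuccinate, had −0.07 and −0.09. *Arg1*, which releases urea, had −0.04. *Nags*, whose product activates carbamoyl phosphate synthetase, had −0.10. For this cycle the estimates were small and the intervals narrow compared with 1.5-fold.

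Both genes of histidine breakdown had small estimates, with −0.05 for *Hal*, the histidine ammonia lyase of the first step, and 0.05 for *Uroc1*, the urocanate hydratase of the next. Among the 4 genes of tyrosine breakdown, *Tat*, the aminotransferase of the first step and a known target of glucocorticoids, had the largest estimate. *Tat* read 6.68, 6.93, 7.28 and 7.04 in WT and 7.19, 7.08, 7.28 and 7.23 in KO. The KO livers were close together near the top of a wide WT range, and the groups overlapped. The log2 fold change was 0.21 with an interval from −0.07 to 0.50 (limma, adjusted p = 0.519). The estimate was 0.11 without WT replicate 1, the lowest liver, and 0.31 without WT replicate 3. *Hpd*, *Hgd* and *Fah*, the following dioxygenases and the hydrolase that ends the route, had −0.03, −0.01 and 0.03.

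The tryptophan to kynurenine route held 2 of the 4 members with an unadjusted p under 0.05. *Tdo2*, the liver dioxygenase that opens the route, read 7.74, 7.96, 7.95 and 7.74 in the WT livers and 7.23, 7.43, 7.72 and 7.68 in the KO livers. All KO livers lay below all WT livers, though KO replicate 3 at 7.72 came close to the lowest WT livers at 7.74. Its log2 fold change was −0.33 ± 0.12 (SE, n = 4 per genotype), with an interval from −0.61 to −0.05, an unadjusted limma p of 0.027 and an adjusted p of 0.304. Without KO replicate 1, the lowest liver, the estimate was −0.23, and without KO replicate 3 it was −0.40.

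*Kynu*, the kynureninase that cleaves kynurenine and 3-hydroxykynurenine, had the lowest p of the 49. Its signal was 4.05, 4.18, 3.99 and 3.81 in the WT livers and 3.56, 3.66, 3.62 and 3.41 in the KO livers. The groups did not overlap, and the highest KO liver was below the lowest WT liver. Its log2 fold change was −0.45 ± 0.10 (SE, n = 4 per genotype), a fold of 1.36, with an interval from −0.67 to −0.23 and an adjusted p of 0.108 (limma). A dimmer probe for another *Kynu* transcript was also without overlap and gave −0.23 (limma, unadjusted p = 0.024, adjusted p = 0.288), so the size differed between the probes. The 3 other genes of this route were *Afmid*, which forms kynurenine, with 0.12, *Kmo*, which hydroxylates it, with −0.12, and *Haao*, which opens the ring of 3-hydroxyanthranilate, with 0.10. None of these 3 had an unadjusted p under 0.05.

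*Got1*, the cytosolic aspartate aminotransferase, had the most negative estimate of a member with an unadjusted p under 0.05. It read 6.11, 6.71, 6.80 and 6.16 in the WT livers and 5.84, 5.88, 6.19 and 5.86 in the KO livers. The WT livers fell into a pair near 6.1 and a pair near 6.8, and KO replicate 3 lay above the lower pair, so the groups overlapped. The estimate was −0.50 ± 0.18 (SE, n = 4 per genotype), a fold of 1.42, with an interval from −0.90 to −0.10 and an adjusted p of 0.276 (limma). The exact permutation test over the 70 assignments of mice, which can give no p below 0.0286, gave p = 0.0857 (two-sided). A dimmer *Got1* probe gave −0.47 ± 0.20 (SE), close to the brighter one. The mitochondrial form *Got2* had 0.06, with an interval from −0.07 to 0.20. The alanine aminotransferases had −0.05 for *Gpt* and 0.07 for *Gpt2*. *Gls2*, the liver glutaminase that frees ammonia from glutamine, had −0.15, and *Glud1*, the glutamate dehydrogenase, had 0.01.

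*Shmt1*, the cytosolic enzyme that interconverts serine and glycine and charges folate with a carbon unit, was the member with the largest positive estimate. Its signal was 2.51, 2.69, 2.68 and 2.93 in the WT livers and 2.88, 3.16, 3.07 and 3.24 in the KO livers. KO replicate 1 lay just below WT replicate 4, and all other KO livers lay above all WT livers. On the log2 scale the fold change was 0.38 ± 0.11 (SE, n = 4 per genotype), a fold of 1.30, with an interval from 0.13 to 0.64 and an adjusted p of 0.203 (limma). The exact permutation test gave p = 0.0571 (two-sided). A dimmer *Shmt1* probe gave 0.35 ± 0.09 (SE), and on that probe all KO livers were above all WT livers. The mitochondrial form *Shmt2* had 0.05, with an interval from −0.11 to 0.22.

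**Figure D2:**
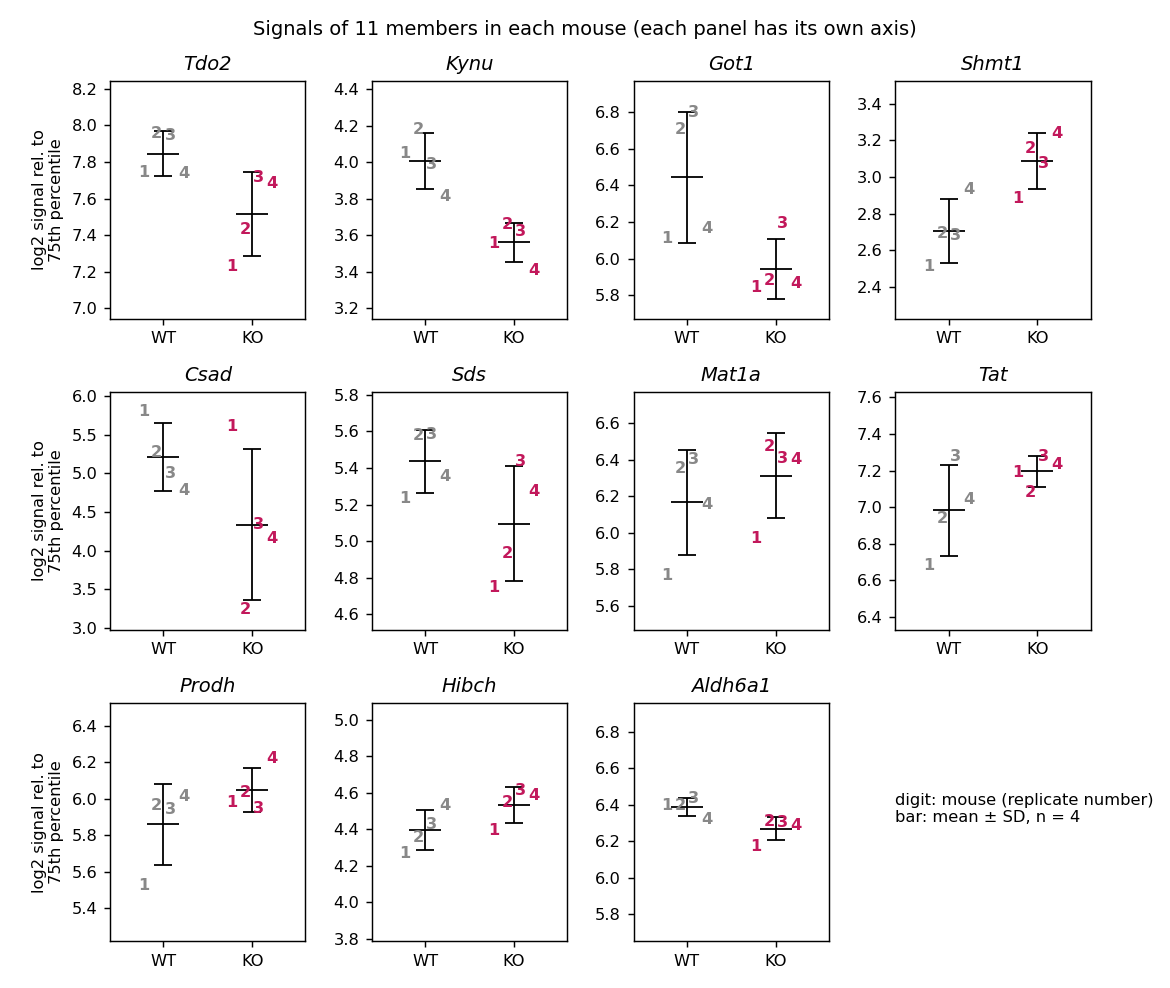
Signal of 11 members in each liver (y axis, log2 with the array's 75th percentile at 0, own axis in each panel); digits are replicate numbers, long bars the mean and short bars the SD of 4 livers. *Kynu*, *Tdo2* and *Aldh6a1* show no overlap, while in *Csad* KO replicate 1 at 5.61 lies among the WT livers and KO replicate 2 at 3.23 far below them.

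The other 3 genes of serine and glycine breakdown had negative estimates. *Sds*, the serine dehydratase, read 5.23, 5.57, 5.59 and 5.35 in the WT livers and 4.74, 4.93, 5.43 and 5.27 in the KO livers. KO replicates 1 and 2 were below every WT liver, and KO replicates 3 and 4 were within the WT range. The log2 fold change was −0.34 with an interval from −0.71 to 0.03 (limma, adjusted p = 0.416). The estimate was −0.22 without KO replicate 1 and −0.45 without KO replicate 3. *Sdsl*, a relative of *Sds*, had −0.22, and *Agxt*, the peroxisomal aminotransferase that clears glyoxylate, had −0.20. *Sds*, *Gls2*, *Hal* and *Cps1* are also markers of periportal hepatocytes. The summed signal of 8 periportal markers, in multiples of the 75th percentile, was 1130 to 1273 in WT and 965 to 1089 in KO, without overlap. Most of that sum came from *Cyp2f2* and *Pigr*, and the other 6 markers, which include these 4 members, summed to 336 to 386 in WT and 306 to 357 in KO, with overlap. Of these 8, 6 had a negative log2 fold change and 0 were called, 2 had an unadjusted limma p under 0.05 (*Cyp2f2* at −0.32 and *Pigr* at −0.24), and none was at background. The sum of 7 pericentral markers overlapped, at 1221 to 1485 in WT and 1168 to 1449 in KO. Whether zonation had a part in the values of these 4 members was not tested, and fewer cells of a type cannot be told apart from less RNA per cell in whole liver.

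Of the 6 genes of methionine and betaine metabolism, none had an interval beyond 1.5-fold. *Mat1a*, which makes S-adenosylmethionine in hepatocytes, read 5.77, 6.35, 6.40 and 6.15 in WT and 5.97, 6.47, 6.41 and 6.40 in KO. Replicate 1 was the lowest liver in both genotypes. Its log2 fold change was 0.14 with an interval from −0.24 to 0.53 (limma, adjusted p = 0.764). It was 0.01 without WT replicate 1 and 0.26 without KO replicate 1. *Gnmt*, which consumes S-adenosylmethionine to methylate glycine, had −0.14. *Ahcy*, which removes the product S-adenosylhomocysteine, had −0.04. *Bhmt*, which regenerates methionine from betaine, had −0.12. *Dmgdh* and *Sardh*, which demethylate dimethylglycine and sarcosine, had 0.06 and −0.05.

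All 4 genes that lead from homocysteine to cysteine and taurine had negative estimates, with a median of −0.24, the lowest of the 10 role groups, and none of the 4 had an unadjusted limma p under 0.05. *Csad*, which makes hypotaurine from cysteine sulfinate, read 5.80, 5.27, 5.0 and 4.77 in the WT livers and 5.61, 3.23, 4.34 and 4.16 in the KO livers. KO replicates 2, 3 and 4 were below every WT liver, but KO replicate 1 was above all WT livers except replicate 1. The estimate was −0.88 with a standard error of 0.46, the largest error of any member, and the interval ran from −1.93 to 0.18 (limma, adjusted p = 0.468). Without KO replicate 1 it was −1.30, and without KO replicate 2 it was −0.51. The SD of *Csad* within genotype was 0.76, above that of 98.8% of all genes tested, and the next member, *Got1*, was at 79.4%. *Cbs* and *Cth*, the synthase and lyase of transsulfuration, had −0.21 and −0.27. *Cdo1*, the dioxygenase that oxidizes cysteine to cysteine sulfinate, had −0.09.

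The 8 members of branched chain and propionate breakdown lay between −0.12 and 0.14, with the interval of each within 1.5-fold. *Aldh6a1*, the methylmalonate semialdehyde dehydrogenase of valine breakdown, read 6.40, 6.40, 6.44 and 6.32 in the WT livers and 6.17, 6.31, 6.30 and 6.29 in the KO livers. The groups did not overlap, and the distance between them was small. On the log2 scale the fold change was −0.12, a fold of 1.09, with an interval from −0.27 to 0.03 (limma, adjusted p = 0.483). *Hibch*, the hydrolase that acts earlier in the same route, read 4.27, 4.36, 4.43 and 4.53 in WT and 4.39, 4.55, 4.61 and 4.59 in KO. Its groups overlapped, with a log2 fold change of 0.14 and an interval from −0.05 to 0.33. *Bckdha* and *Bckdhb*, subunits of the dehydrogenase that commits all branched chain skeletons, had −0.03 and 0.00. *Ivd* and *Mccc1*, of leucine breakdown, had 0.03 and −0.05. *Pcca* and *Pccb*, the subunits of propionyl-CoA carboxylase, had 0.11 and −0.09.

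The 3 genes of lysine and proline breakdown were within 1.5-fold as well. *Prodh*, the first enzyme of proline oxidation, read 5.53, 5.96, 5.94 and 6.01 in WT and 5.98, 6.04, 5.95 and 6.22 in KO. WT replicate 1 stood below the other 7 livers, which lay between 5.94 and 6.22. The log2 fold change was 0.19 with an interval from −0.09 to 0.46 (limma, adjusted p = 0.563). It was 0.08 without WT replicate 1 and 0.24 without WT replicate 4. *Aldh4a1*, the next enzyme of that route, had 0.05. *Aass*, which opens lysine breakdown, had −0.07.

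For 22 members the array carried a dimmer probe beside the one used, and 27 had a single probe. Both probes had the same sign in 20 of 22 pairs (9 both negative, 11 both positive), and differed in sign for *Gpt*, with −0.05 and 0.04, and *Mccc1*, with −0.05 and 0.10. The largest gap between the probes of a gene was 0.22 for *Kynu*, and the median gap was 0.05. Probes of a gene were read on the same 8 arrays from the same RNA, so their likeness covers the probe and not the mouse.

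**Figure D3:**
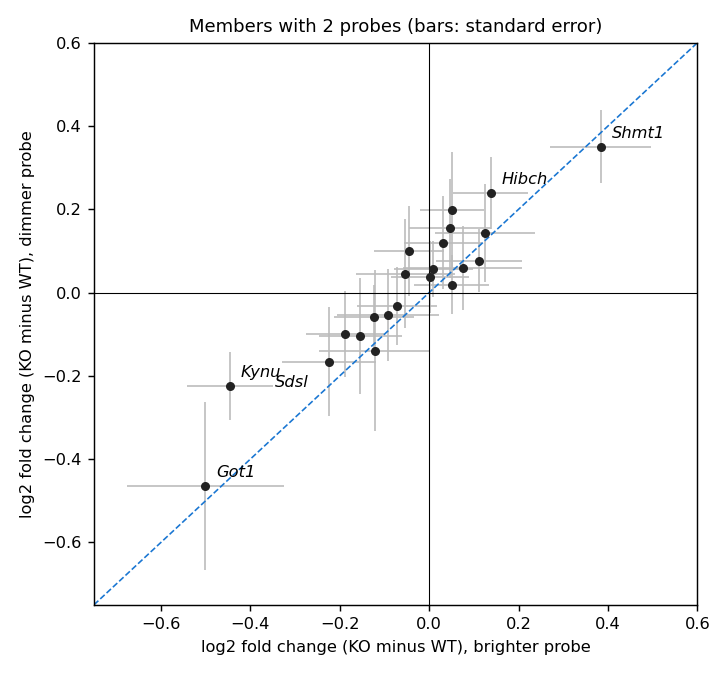
Log2 fold change (KO minus WT) of the brighter probe (x axis) and the dimmer probe (y axis) for the 22 members with 2 probes; bars are standard errors from limma and the dashed line is equality. *Got1* and *Shmt1* lie near the line at both ends, and *Kynu* lies above it, at −0.45 and −0.23.

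The members varied among mice about as much as other genes. The median SD within genotype was 0.15 for the members and 0.16 for all genes tested. Those genes were not matched to the members for signal level. Livers of replicate 1 stood lowest in both genotypes. Relative to the WT mean, the median of the 49 members was −0.11, 0.06, 0.05 and −0.02 in WT replicates 1 to 4, and −0.16, −0.00, 0.01 and 0.03 in KO replicates 1 to 4. KO replicate 1 was the lowest of the 8 livers for 22 members (44.9%, against 19.2% of all genes), and WT replicate 1 for 15 (30.6% against 16.4%). WT replicate 3 was lowest for 0 members and highest for 13. Between KO replicate 1 and the other KO livers the offset of the members was larger than the difference between genotypes. Without KO replicate 1 the median log2 fold change of the members was 0.00, with 24 of 49 negative. Leaving out WT replicate 1 instead gave −0.07, with 35 of 49 negative. KO replicate 1 also had the lowest summed signal of 6 Kupffer cell markers (48.4, against 58.8 to 105 in WT and 75.7 to 80.9 in the other KO livers), of which none was at background, and of 5 endothelial markers (70.6, against 77.4 to 80.6 in WT). Its sum of 4 erythroid markers, 1 of them at background, was 151, against 214 to 265 in WT. Most of that sum came from *Hba-a1*. *Hba-a1* and *Slc4a1* were lowest in KO replicate 1, at 6.98 and −2.99. *Alas2* was lowest in KO replicate 3, at 4.14, against 4.62 in KO replicate 1. The sum of 6 hepatocyte markers in KO replicate 1, 5316, lay within the WT range of 4887 to 5664. The part of cell makeup in this offset was not tested.

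**Figure D4:**
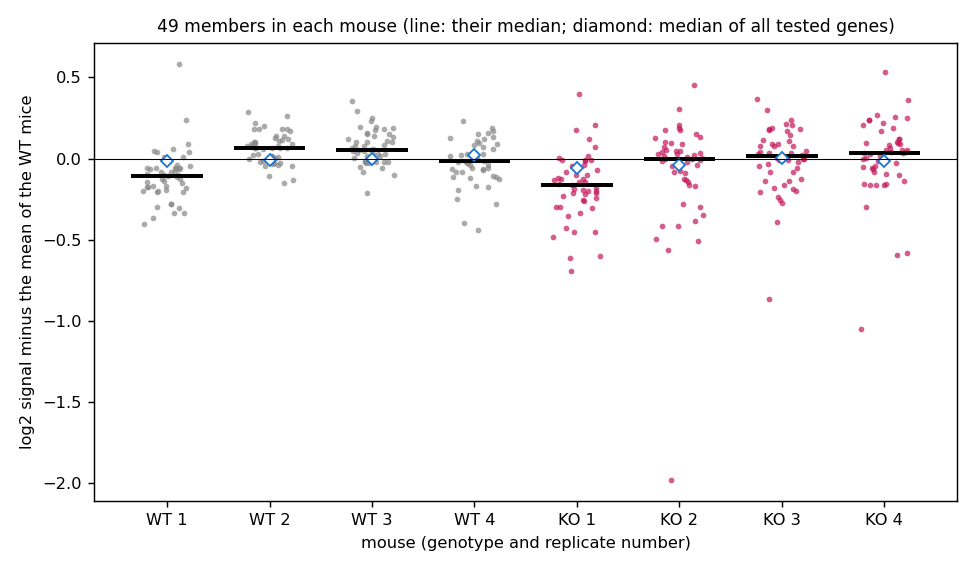
Signal of the 49 members in each liver minus the mean of the WT livers (y axis, log2); points are members, black lines their median and blue diamonds the median of all genes tested. The black lines of WT replicate 1 (−0.11) and KO replicate 1 (−0.16) lie below the diamonds of the same livers, and the other 6 lie within 0.1 of 0.

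Neighbouring genes of the same metabolism, in a list of 71 drawn up with earlier results of these data known, also held no called gene. Of its 57 further enzymes of amino acid breakdown and 14 amino acid transporters, 67 were above background in at least 1 genotype, and 0 were called in either direction. Without adjustment, 7 of the 67 had a limma p under 0.05 (10.4%, against 13.9% of all genes). The median log2 fold change was 0.02, with 41 positive and 26 negative, so that 38.8% were negative, against 61.2% of the members and 57.9% of all genes. Under an adjusted p of 0.2 without a minimum fold there were 3 (4.48%, close to the 4.28% of all genes), named here after their values were seen. *Aadat*, the mitochondrial aminotransferase that turns kynurenine into kynurenic acid, read 5.10, 5.09, 5.02 and 5.31 in WT and 4.57, 4.84, 4.32 and 4.73 in KO. All KO livers were lower, with a log2 fold change of −0.51 ± 0.12 (SE) and an adjusted p of 0.133 (limma). *Kyat1*, the cytosolic kynurenine aminotransferase, read 6.59, 6.68, 6.53 and 6.88 in WT and 7.02, 7.17, 6.98 and 7.09 in KO. All KO livers were higher, with 0.39 ± 0.09 (SE) and an adjusted p of 0.126 (limma). *Bhmt2*, a relative of *Bhmt* that uses S-methylmethionine, had 0.36 (adjusted p = 0.175, limma), again with all KO livers higher. Of the other genes on the tryptophan route in this list, *Ido2*, a second dioxygenase that can open the route, had 0.30 (limma, unadjusted p = 0.0275, adjusted p = 0.307), opposite in sign to *Tdo2*. *Kyat3*, a further kynurenine aminotransferase, had −0.06. *Acmsd* and *Qprt*, which act after *Haao* on either side of the branch to nicotinate, had −0.23 and 0.09.

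Of 12 regulators of these enzymes (receptors, transcription factors and coactivators), 0 were called, and 2 had an unadjusted limma p under 0.05. *Ppargc1a*, a coactivator that rises with fasting, read 0.63, 0.82, 0.87 and 1.32 in WT and 1.66, 1.41, 1.85 and 1.13 in KO. One KO liver, replicate 4, was within the WT range, and the log2 fold change was 0.60 ± 0.19 (SE, limma, adjusted p = 0.236). *Hnf4a*, a nuclear receptor of hepatocytes, had −0.33 ± 0.12 (SE, limma, adjusted p = 0.276). Of 10 genes that respond to fasting and feeding, 0 were called, and *Pdk4* alone had an unadjusted p under 0.05 (log2 fold change 0.73, limma, adjusted p = 0.260). *Igfbp1* had 0.76 (interval −0.61 to 2.12) and *Fgf21* 0.73 (interval −0.83 to 2.29). Of the 10 estimates, 5 were positive and 5 negative. The intervals of only 2 stayed within 1.5-fold (20%, against 76.2% of all genes). The 10 genes spread widely within each genotype, with a median SD of 0.51, beside 0.15 for the members. *G6pc*, the last enzyme of glucose release, ran from 5.30 to 7.01 in WT and from 5.69 to 7.52 in KO. The part of feeding state in the values of the members was not tested.

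*Agpat3* itself, which checks the labels, read 5.65, 5.66, 5.80 and 5.88 in WT and −0.48, 0.02, −0.58 and −0.47 in KO, a log2 fold change of −6.12 (limma, adjusted p = 4.47e-07). Processed signals had a 75th percentile of 261 to 309 intensity units. All arrays were on 1 slide, with WT in one row and KO in the other, and the effect of slide position cannot be told apart from that of genotype. The 6 hepatocyte markers were well above background on every array, with 0 called. *Marco*, a scavenger receptor of Kupffer cells, was the only marker called of all cell type lists (log2 fold change −1.22, limma, adjusted p = 0.0981). The other Kupffer cell markers had −0.09 for *Clec4f*, −0.17 for *Adgre1*, −0.07 for *Cd5l*, 0.04 for *Vsig4* and 0.12 for *Timd4*. The labels give each liver as a separate sample, and with 4 per genotype the number of arrays limits the precision.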

How the data were processed

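One-color Agilent arrays were hybridized with RNA of 4 *Agpat3* WT and 4 *Agpat3* KO livers. Files deposited by the authors were the scanner output (Feature Extraction 10.7.1.1), whose processed signal is a background-corrected fluorescence intensity on a linear scale, and a table of log2 values, which equals the log2 of that signal minus the 75th percentile of each array up to a constant under 0.01. From the intensities, control and outlier spots were left out, spots of a probe were averaged, and the array's 75th percentile over 56605 probes was subtracted on the log2 scale. Kept were 29069 probes, those above background by the scanner's own call on 4 of 4 arrays of a genotype, and they were compared with limma 3.58.1 in R 4.3.3 (lmFit, eBayes, two-sided, Benjamini-Hochberg) and called at a fold over 1.5 and an adjusted p under 0.2. The procedure was tested on simulated data. Intervals are 95%. Arrays have no sequencing depth. The signal over background and the number of arrays limit their precision.

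Transcript identifiers were matched to symbols through RefSeq (GRCm38.p6). The members, roles and lists were chosen with earlier results of these data known. Values in every mouse are given for members called, those with an unadjusted p under 0.05 or no overlap, the 5 largest and 5 smallest estimates, and the 3 largest SDs. *Otc* and genes of other lists were added after their values were seen. Alternatives were another background correction, 2 other normalizations, the deposited log2 values, other filters on dim probes and outlier spots, other thresholds, probe means per gene, a moderated variance with a trend, a replicate block and leaving out each liver. Cross-hybridization between related genes was not tested.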

Additional observations from a re-analysis of the deposited data

Results flagged for a closer look

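In 9 of 98 groups of 4 livers (49 members in each genotype, 9.18%), 1 liver lay so far from its nearest neighbor that the gap, divided by the range of the group, passed the 95% critical value of Dixon's test. Independent groups would pass it in about 1 in 20. These groups share the same livers, and the share over all genes was not computed, so no excess is read from this count. KO replicate 1 was the low liver in 4 of the 9. It read 6.17 for *Aldh6a1* (next liver 6.29), 7.40 for *Hpd* (next 7.69), 5.97 for *Mat1a* (next 6.40) and 2.90 for *Pcca* (next 3.23). KO replicate 4 was the high liver for *Haao*, at 7.72 (next 7.59), and for *Hal*, at 6.79 (next 6.39). KO replicate 3 was high for *Got1*, at 6.19 (next 5.88). KO replicate 2 was low for *Sdsl*, at 3.67 (next 3.90). WT replicate 1 was low for *Prodh*, at 5.53 (next 5.94). All values are log2 with the array's 75th percentile at 0.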

How the results depend on the processing

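No member was called higher under any alternative. With no minimum fold change, 1 member was called lower (*Kynu*), and of the further pathway genes 2 were called higher (*Kyat1*, *Bhmt2*) and 1 lower (*Aadat*), since their folds are under 1.5. With an unadjusted p under 0.2 in place of the adjusted one, 1 member was called lower (*Csad*). Leaving out 1 liver gave 0 members called, and 0 to 1 pathway genes called lower, the 1 being *Aadat* without KO replicate 2; the cause was not tested. The median log2 fold change of the members ran from −0.07 to 0.00 when 1 liver was left out, and from −0.08 under median normalization to −0.02 under quantile normalization. The median of all probes moved less than 0.1 between scalings of the same probes. All probes called numbered 484, and 246 under normexp background, 255 with no filter on dim probes, 290 without KO replicate 2, 259 without WT replicate 3, 305 without WT replicate 2, 117 at an adjusted p under 0.05, 161 at a fold over 2, 1190 with no minimum fold change, 988 at an unadjusted p under 0.2, and 592 with the replicate block, under which 0 members were called and 8 had an unadjusted p under 0.05. Deviations of same-numbered livers correlated with r of 0.33, −0.11, 0.10 and 0.32 for replicates 1 to 4. The best matching KO liver had the same number for WT replicates 1, 3 and 4, and was replicate 3 for WT replicate 2. The labels name no pairs and these values do not settle whether there were any, so the main comparison used none. Over all alternatives, 3 to 8 members had an unadjusted p under 0.05. The share of all genes at that p was counted only in the main comparison, so these counts cannot be set against it. *Kynu* and *Shmt1* kept an unadjusted p under 0.05 in every alternative, *Got1* lost it without WT replicate 2, WT replicate 3 or KO replicate 1, and *Tdo2* without those or KO replicate 2. The 11 members named by the rule kept their sign in every alternative run, and *Otc* was not included in that check. Adjusted p ranged from 0.0683 to 0.275 for *Kynu* and from 0.109 to 0.454 for *Shmt1*. Signal over background did not limit the members.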
